A study of Homo sapiens with 6 samples.

Results

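The HOX genes were examined in oral squamous cell carcinoma (OSCC) cells before and after knockdown of DLEU1, a long noncoding RNA transcribed from chromosome 13. Members were the array probes outside the controls whose gene name in the scanner files is HOX, a cluster letter from A to D and a number. The rule uses gene names only. The rule found 45 probes for 39 genes among 50599 probes with 34423 gene names, and 6 of the genes had 2 probes. Gene expression was measured on 6 one-color arrays, 1 for each of HSC-3, KON, and Ca9-22 transfected with siDLEU1-2, a small interfering RNA (siRNA) against DLEU1, and 1 for each line transfected with control siRNA (siCtrl, a universal negative control). All 3 are established OSCC lines, and RNA (100 ng) was taken 72 h after transfection in every group. Each line and siRNA has 1 array, so the 3 lines are the only replicates of the siRNA comparison and the 2 arrays of a line, which differ in siRNA, are the only replicates of a line. A second siRNA against DLEU1 was not analysed here, so effects of this siRNA and of DLEU1 loss cannot be told apart.

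HOX genes encode homeodomain transcription factors that give cells their position along the body axis. They lie in clusters, and within a cluster the genes follow the order in which they are used, with low numbers at the 3′ end acting toward the head and high numbers at the 5′ end acting toward the tail and the tips of the limbs. Genes with the same number in different clusters are paralogs. Their proteins bind DNA together with PBX and MEIS proteins, and their expression is held on or off by trithorax and Polycomb complexes and set in the embryo by retinoic acid. On hg19, the build of the files, the HOXA probes described here lie on chromosome 7 from 27140350 to 27236733, the HOXB probes on chromosome 17 from 46607916 to 46802203, the HOXC probes on chromosome 12 from 54340034 to 54449814, and the HOXD probes on chromosome 2 from 176960600 to 177055431.

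The strands of the siRNA are shown because a strand can pair with transcripts other than its target through its seed, the bases 2 to 8 from its 5′ end, which are in capitals.
siDLEU1-2 antisense: uUAAGUGCgauaaccccugua
siDLEU1-2 sense: cAGGGGUUaucgcacuuaagc

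The heptamer complementary to the antisense seed, GCACTTA, is in 138 of the 50599 probe sequences (0.273%), and the heptamer complementary to the sense seed, AACCCCT, is in 173 (0.342%). Only the strand given in the files was searched, and only the 60 bases of each probe, not whole transcripts. Among the 45 HOX probes, 1 holds the antisense heptamer (HOXA11) and 2 hold the sense heptamer (HOXD8 and HOXD11), with the heptamer in capitals in the 30 bases around it. The stretches lie at chr2:176996111-176996140 on the plus strand for HOXD8, chr2:176973841-176973870 on the plus strand for HOXD11, and chr7:27220806-27220835 on the minus strand for HOXA11.
HOXD8: aatttctttttAACCCCTatctgaccagga
HOXD11: cagtatttcactggaAACCCCTtattttga
HOXA11: gtgttgcaGCACTTAtacaggcaactgggc

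In HOXD8, the match also includes the base that pairs with position 9 of the sense strand. The search of the sense strand was added after the values of HOXD8 were seen. A match is a run of letters, and pairing of the siRNA with these transcripts was not tested.

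DLEU1 itself fell in all 3 lines. As log2 fold change, siDLEU1-2 over siCtrl, HSC-3 gave -4.10, KON -3.63, and Ca9-22 -3.44 (adjusted p = 0.0227, limma). Levels are given below as the log2 of the processed signal relative to the 75th percentile of the probes on the same array, which is 0, and where a line has a pair of values, siCtrl comes first. The signal at that percentile was 200.5 to 256.8, and 43.0% to 45.7% of the probes on an array were well above background by the scanner software's test. Levels compare arrays for 1 probe, and not one probe with another. Of 12 markers of squamous epithelium, 12 were well above background on both arrays in HSC-3 and in KON and 11 in Ca9-22. Of 7 fibroblast markers, 1 was so in each line (COL1A1), and 5 were well above background on no array.

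A HOX gene was counted as expressed in a line where a probe of it was well above background on both arrays of that line. This was so for 19 of the 39 genes in HSC-3 cells, 21 in KON cells, and 14 in Ca9-22. Among all gene names on the array, the shares were 44.0%, 45.5%, and 43.7%. With a threshold from the negative control spots in place of the scanner's test, the HOX counts were 29, 26, and 24, and HSC-3 rather than KON had the most. In all 3 lines, 11 HOX genes were expressed (HOXA2, HOXA3, HOXA7, HOXA9, HOXA10, HOXB9, HOXC4, HOXC6, HOXC8, HOXC9, and HOXC13), where 39.1% of all gene names were, and 25 were expressed in at least 1 line, beside 17204 of all 34423 gene names. The set differed between lines. Of those 25 genes, 13 were well above background on both arrays of 1 or 2 lines and on no array of another, and among all gene names expressed in a line this share was 14.9%. The genes with no probe well above background on any array included HOXB1, HOXB3, HOXB7, HOXB13, HOXC5, HOXC12, HOXD1, HOXD3, and HOXD12. The highest level of a HOX probe that was well above background on no array was -3.61, and the lowest that was well above background was -3.37, so dim genes near this boundary are not resolved.

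**Figure D1:**
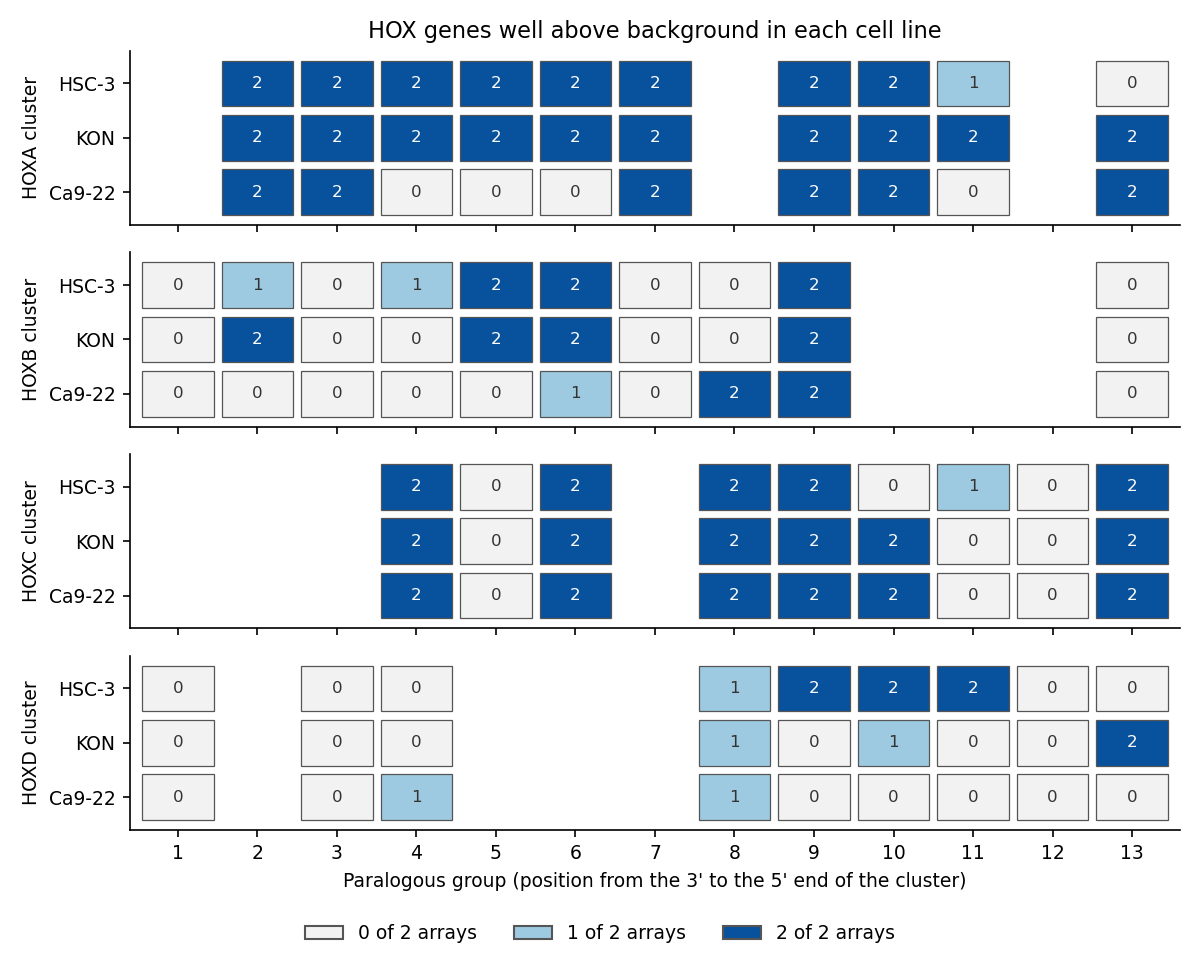
Arrays on which each HOX gene was well above background, by cluster (panels), paralogous group (horizontal axis) and cell line (rows); each cell gives the number of the 2 arrays of the line, and blank positions hold no gene or one that is not shown. In Ca9-22, HOXA4 to HOXA6 are at 0 between genes at 2, and the HOXD cluster has 2 of 2 arrays only in HSC-3 (HOXD9 to HOXD11) and KON (HOXD13).

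By cluster, HSC-3, KON, and Ca9-22 expressed 8, 10, and 6 of the 11 HOXA genes, 3, 4, and 2 of the 10 HOXB genes, 5, 6, and 6 of the 9 HOXC genes, and 3, 1, and 0 of the 9 HOXD genes. HOXD8 is not among these, as it was well above background on the siCtrl array of every line and on no siDLEU1-2 array. On the siCtrl arrays alone, an alternative chosen after seeing the data, the lines expressed 21, 23, and 16 of the 39 HOX genes, beside 46.6%, 48.8%, and 47.4% of all gene names. HOXA and HOXC therefore held all but 1 of the genes shared by the 3 lines, the exception being HOXB9. By position, these lines expressed 2, 3, and 2 of the 8 genes of groups 1 to 3. Of the 15 genes of groups 4 to 8 they expressed 9, 9, and 5, and of the 16 genes of groups 9 to 13 they expressed 8, 9, and 7, and differences between positions were not tested. No gene of group 12 was expressed in any line. Group 9 had 4 of its 4 paralogs expressed in HSC-3 and 3 in KON and in Ca9-22.

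In the HOXA cluster, KON expressed an unbroken run from HOXA2 to HOXA13, HSC-3 a run from HOXA2 to HOXA10, and Ca9-22 had a gap at HOXA4, HOXA5, and HOXA6. HOXA4 had levels of -0.49 and -0.60 in HSC-3 and -0.20 and 0.83 in KON, and it was not well above background in Ca9-22 (-5.40 and -5.23). HOXA5, which is known for its part in lung and airway development, was at 0.19 and -0.06 in HSC-3 cells, 0.85 and 1.10 in KON cells, and -4.26 and -5.04 in Ca9-22. The brighter probe of HOXA6 was at -0.16 and -1.41, -0.71 and -0.04, and -5.29 and -5.09 in the same order. Its dimmer probe was well above background on 1 array of HSC-3 (-2.39, with -3.86 on the other), both of KON (-3.01 and -2.62), and none of Ca9-22 (-5.67 and -5.52), so KON was at least 1.47-fold above Ca9-22. With the brighter probe of HOXA6, the arrays of these 3 genes in HSC-3 and KON lay above both arrays of Ca9-22 with no overlap. As a probe not well above background gives only a bound, HOXA4 was at least 7.06-fold higher in HSC-3 and at least 12.8-fold higher in KON than in Ca9-22, HOXA5 at least 10.8-fold and 20.3-fold, and HOXA6 at least 5.97-fold and 7.94-fold (the largest adjusted p of these 6 differences was 0.0073, limma). These probes entered the fit through HSC-3 and KON, where they are bright, and not through Ca9-22. These bounds set the mean log2 level of the brighter line against the mean of the higher of the dim probe's level and the lowest level well above background on each array. In the line comparisons below, each p given with such a bound has the same limit. The probe entered the fit through the brighter line, and its values in the dim line are at background.

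The genes on both sides of this gap were expressed in Ca9-22. HOXA2, the head-most HOX gene of the hindbrain, was at -2.52 and -2.38 in Ca9-22, against -1.65 and -0.87 in HSC-3 and -1.16 and -0.05 in KON. HOXA3, a regulator of the pharyngeal arches, was at 1.02 and 0.67, against 2.13 and 2.02 and 2.28 and 2.81. Both were lower in Ca9-22 than in either other line (adjusted p from 0.0141 to 0.0373, limma). HOXA7, a paralog active in epidermal keratinocytes, differed widely among the lines. Its levels were -2.79 and -2.89 in HSC-3 cells, 2.49 and 2.49 in KON cells, and -1.27 and -0.47 in Ca9-22, so the lines did not overlap, and the siRNA pairs lay closer together in HSC-3 and KON than in Ca9-22. The log2 difference was -5.33 for HSC-3 minus KON and 3.36 for KON minus Ca9-22 (adjusted p = 0.0020 and 0.0041, limma). At the 5′ end, HOXA13, a gene of the distal limb and the hindgut, was at -1.67 and -1.28 in KON and -1.04 and -1.53 in Ca9-22, while HSC-3, at -5.57 and -4.03, was not well above background, a difference of at least 4.32-fold for KON and 4.93-fold for Ca9-22 (adjusted p = 0.0136 and 0.0117, limma). HOXA11, a limb and uterine gene, was dim. Its levels were -2.40 and -3.18 in KON, -2.45 and -3.91 in HSC-3, where only siCtrl was well above background, and -5.77 and -5.60 in Ca9-22.

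**Figure D2:**
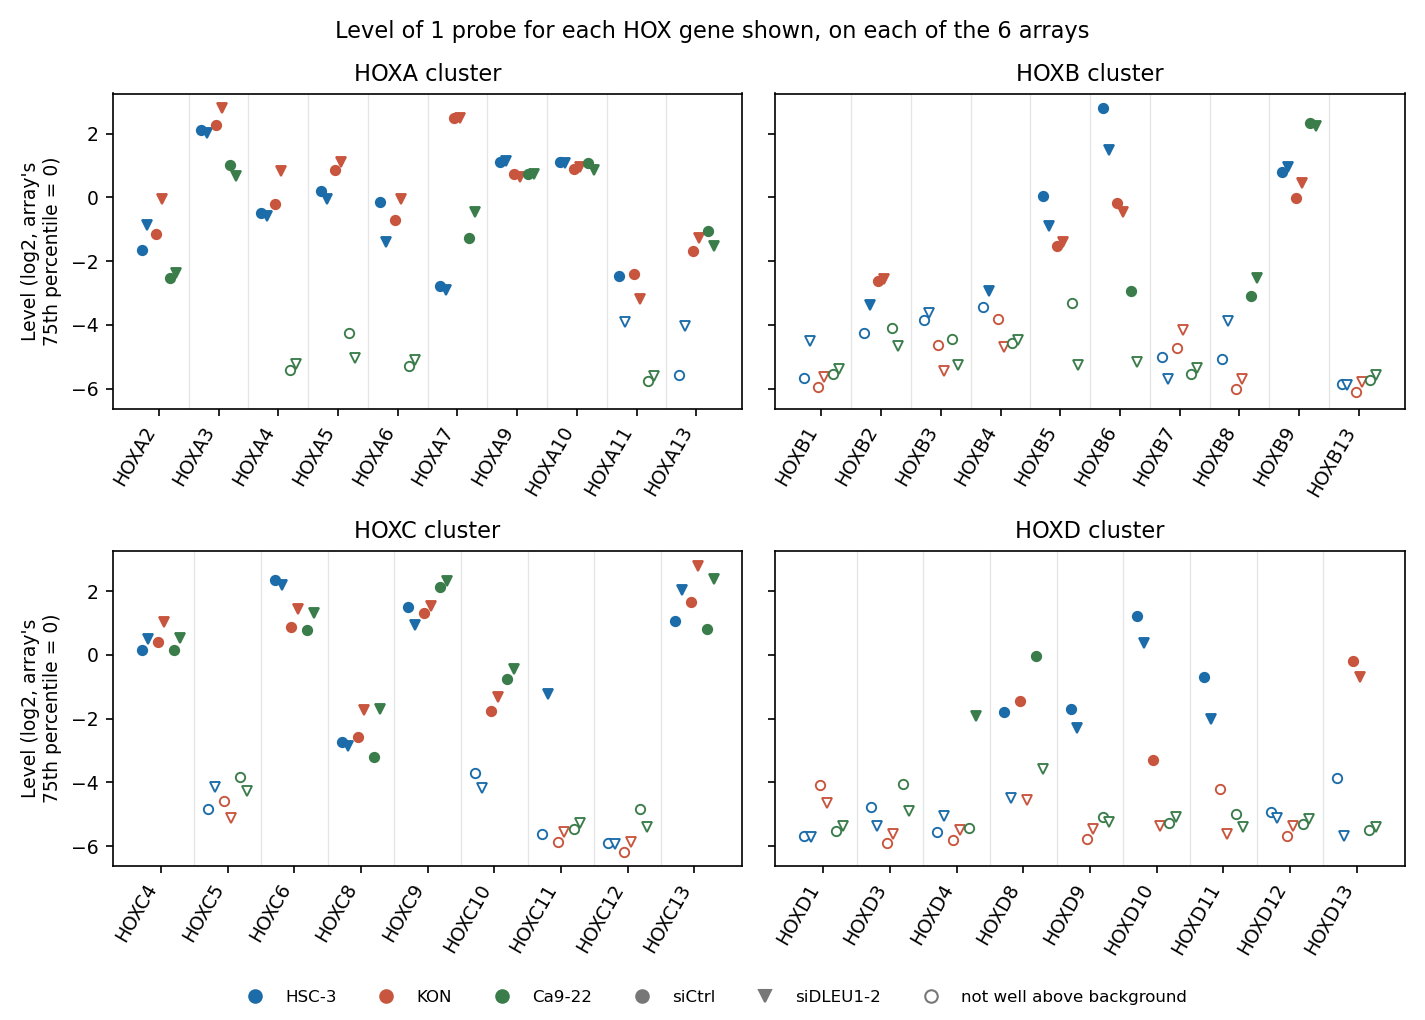
Level of 1 probe for each HOX gene shown (the one well above background on most arrays, then the brightest) on each of the 6 arrays, by cluster and in order of position; circles are siCtrl, triangles siDLEU1-2, colors the cell lines, and open symbols arrays on which the probe was not well above background. The vertical axis is log2 with the array's 75th percentile at 0; the open green symbols at HOXA4 to HOXA6, the spread of HOXA7 and the drop of HOXD8 from circles to triangles in every line can be seen.

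HOXA9 and HOXA10, which are known for their part in blood cell progenitors and the uterus, were each measured by 2 probes that disagreed about the lines. For HOXA9, the probe A_23_P500998 gave -1.25 and -1.25 in HSC-3 cells, -0.41 and 0.35 in KON cells, and 0.82 and 1.0 in Ca9-22, a range of 2.25. The probe A_33_P3416231 gave 0.63 to 1.15 on all 6 arrays. HSC-3 was below Ca9-22 with the first (adjusted p = 0.0077, limma), and the difference did not pass with the second (0.40 on the log2 scale in the other direction, adjusted p = 0.14). For HOXA10, the probe A_24_P77904 gave -1.51 and -1.81 in HSC-3 cells, 0.68 and 0.94 in KON cells, and -5.58 and -5.44 in Ca9-22, where it was not well above background, so that KON was at least 18.0-fold and HSC-3 at least 3.26-fold above Ca9-22 (adjusted p = 0.00095 and 0.0021, limma). Its other probe, A_33_P3288649, gave 0.87 to 1.12 on all 6 arrays, a range of 0.25. The ends of that probe lie 1235 bases apart on hg19 while those of the other lie within 60. The count of HOXA10 as expressed in Ca9-22 therefore rests on 1 of 2 probes.

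**Figure D3:**
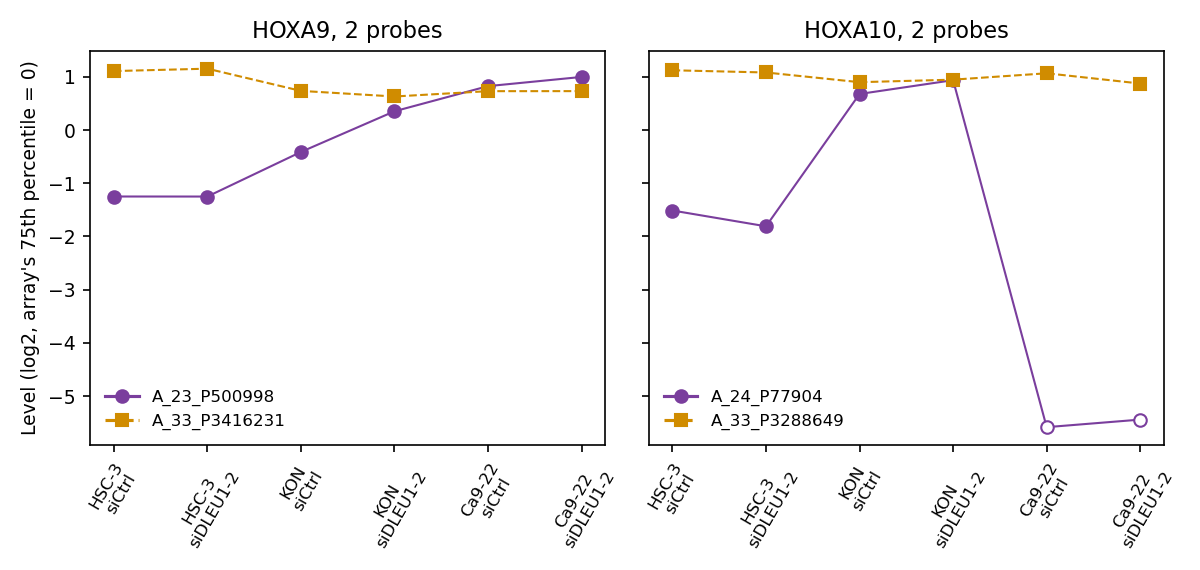
Levels of the 2 probes of HOXA9 (left) and HOXA10 (right) on the 6 arrays, log2 with the array's 75th percentile at 0; open symbols are not well above background and lines join the values of 1 probe. The probe A_33_P3288649 of HOXA10 stays within a range of 0.25 while A_24_P77904 spans 6.52.

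The HOXB cluster was mostly silent outside the stretch from HOXB5 to HOXB9. HOXB6 was at 2.79 and 1.47 in HSC-3 cells, -0.19 and -0.47 in KON cells, and -2.95 and -5.17 in Ca9-22, where only siCtrl was well above background, and the lines did not overlap. HSC-3 was above KON by 2.46 on the log2 scale (adjusted p = 0.0239, limma). Against Ca9-22 (adjusted p = 0.0035, limma) no size is given, as 1 of the 2 arrays measured the probe there. Its neighbor HOXB5 followed the same order, at 0.03 and -0.91 in HSC-3 cells, -1.53 and -1.40 in KON cells, and -3.31 and -5.26 in Ca9-22, not well above background there, with at least 7.27-fold and 3.56-fold more in HSC-3 and KON (adjusted p = 0.0101 and 0.0204, limma). HSC-3 and KON did not differ by the test for HOXB5 (1.03 on the log2 scale, adjusted p = 0.18). At the next expressed genes, Ca9-22 was the highest line. HOXB8 was well above background only in Ca9-22 (-3.10 and -2.53, against -5.07 and -3.87 in HSC-3 and -6.00 and -5.68 in KON), by at least 1.71-fold and 1.83-fold (adjusted p = 0.0153 and 0.0045, limma). HOXB8 entered the fit through Ca9-22 alone. HOXB9 was highest in Ca9-22, at 2.32 and 2.24, against 0.81 and 0.97 in HSC-3 and -0.02 and 0.45 in KON. HSC-3 and KON, neighbors in this order, did not differ by the test (0.68, adjusted p = 0.07), while Ca9-22 differed from both (adjusted p = 0.0134 and 0.0061, limma). At the 3′ end, the probe A_33_P3271273 of HOXB2 was well above background on both arrays of KON (-2.63 and -2.57) and on siDLEU1-2 of HSC-3 (-3.37), and the other HOXB2 probe only on the latter. HOXB4 had a single array well above background, HSC-3 with siDLEU1-2 (-2.95).

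The HOXC cluster was the most alike among the lines, with HOXC4, HOXC6, HOXC8, HOXC9, and HOXC13 expressed in each. HOXC4 was at 0.16 and 0.50 in HSC-3 cells, 0.41 and 1.03 in KON cells, and 0.15 and 0.52 in Ca9-22, and the lines overlapped. HOXC8 was dim in each, at -2.74 and -2.85, -2.58 and -1.72, and -3.21 and -1.71. Neither differed between any pair of lines by the test (smallest adjusted p = 0.16 and 0.28, limma). HOXC6 was higher in HSC-3 (2.36 and 2.19) than in KON (0.88 and 1.43) and Ca9-22 (0.77 and 1.31), by 1.12 and 1.24 on the log2 scale (adjusted p = 0.0327 and 0.0261, limma). HOXC9 was at 1.5 and 0.94 in HSC-3 cells, 1.33 and 1.53 in KON cells, and 2.14 and 2.32 in Ca9-22. It was called only between HSC-3 and Ca9-22 (-1.01 on the log2 scale, adjusted p = 0.0460, limma). HOXC10 separated the lines like HOXA13, with -1.77 and -1.31 in KON and -0.74 and -0.43 in Ca9-22 against -3.71 and -4.19 in HSC-3, not well above background there, a difference of at least 4.14-fold and 8.0-fold (adjusted p = 0.0083 and 0.0043, limma). HOXC10 entered the fit through KON and Ca9-22, and not through HSC-3. HOXC11, which lies between HOXC12 and HOXC10, was well above background on 1 array, HSC-3 with siDLEU1-2 (-1.24 against -5.61 with siCtrl, at least 5.07-fold), and with 1 array in each group that difference has no replicate.

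In the HOXD cluster, whose 5′ genes pattern the limbs and genitalia, HSC-3 expressed HOXD9 to HOXD11, KON HOXD13, and Ca9-22 no gene on both arrays, while HOXD8 was well above background in all 3 with siCtrl only. HOXD10 was at 1.23 and 0.37 in HSC-3 cells, -3.30 and -5.37 in KON cells, where only siCtrl was well above background, and -5.27 and -5.10 in Ca9-22, with HSC-3 at least 17.9-fold above Ca9-22 (adjusted p = 0.0049, limma). HOXD11 was at -0.70 and -2.02 in HSC-3 and not well above background in KON (-4.21 and -5.63) or Ca9-22 (-4.99 and -5.39), at least 5.0-fold and 4.02-fold lower (adjusted p = 0.0048 and 0.0037, limma). For HOXD9, the probe A_23_P429383 was at -1.70 and -2.30 in HSC-3 and not well above background elsewhere, a difference of at least 3.21-fold from KON and 2.57-fold from Ca9-22, and the second probe was not well above background on any array. HOXD13, the last gene of the cluster, was expressed in KON alone, at -0.18 and -0.69, against -3.87 and -5.68 in HSC-3 and -5.48 and -5.41 in Ca9-22. KON was at least 8.88-fold above HSC-3 and 7.62-fold above Ca9-22 (adjusted p = 0.0071 and 0.0053, limma). HOXD13 entered the fit through KON alone. HOXD4 was well above background on 1 array only, Ca9-22 with siDLEU1-2 (-1.90 against -5.44 with siCtrl, at least 2.90-fold, with no replicate).

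Across all genes, the lines differed widely, and the HOX counts are read against that. Of the 28 HOX probes well above background on both arrays of at least 1 line, limma called 12 between HSC-3 and KON, where 37.4% of all 23700 such probes were called, 21 between HSC-3 and Ca9-22, where 37.4% were, and 16 between KON and Ca9-22, where 35.9% were. In any of the 3 pairs, 23 HOX probes were called, where 60.9% of all were. Probes enter this test through the line in which they are bright, so these counts are not evidence about the family. Among the 12 HOX probes well above background on all 6 arrays, 4 were called between HSC-3 and KON, 7 between HSC-3 and Ca9-22, and 5 between KON and Ca9-22, where the shares of all 18094 such probes were 41.0%, 41.3%, and 37.6%. In any pair, 7 of the 12 were called, where 65.8% of all were. The p-values cover the spread between the 2 arrays of a line only, which differ in siRNA.

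The siRNA comparison asked which genes follow DLEU1 in all 3 lines. It could be made for 14 HOX probes, from 13 genes, with at least 1 array of every line well above background, among 19956 such probes. limma called 1 HOX probe higher after siDLEU1-2 (HOXC13), where 3.98% of all probes were called higher, and 1 lower (HOXD8), where 4.52% were called lower. The 2 calls of 14 stand beside 8.50% of all probes called in either direction. At an unadjusted p below 0.05 there were 5 HOX probes, where 29.5% of all were. HOXD8 was also the only HOX probe that changed more than 2-fold in all 3 lines, where 2.08% of all probes fell that far in each and 4.38% changed that far in either direction. The median log2 fold change of the 14 HOX probes was 0.21, beside 0.01 over all probes, and by line it was -0.07 in HSC-3 cells, 0.50 in KON cells, and 0.16 in Ca9-22. Over all probes, the medians by line were -0.0016, 0.0185, and -0.0083 in the same order. In KON, 11 of the 14 lay above 0, against 5 in HSC-3 and 9 in Ca9-22. Both probes of HOXA9 are among the 14, and differences between lines in these counts were not tested. With only 2 lines, limma called no probe of any gene when HSC-3 or KON was the line left out (4547 and 4676 probes, 4 and 3 of them HOX, at an unadjusted p below 0.05) and 244 when Ca9-22 was, so every siRNA call given here depends on the lines included.

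**Figure D4:**
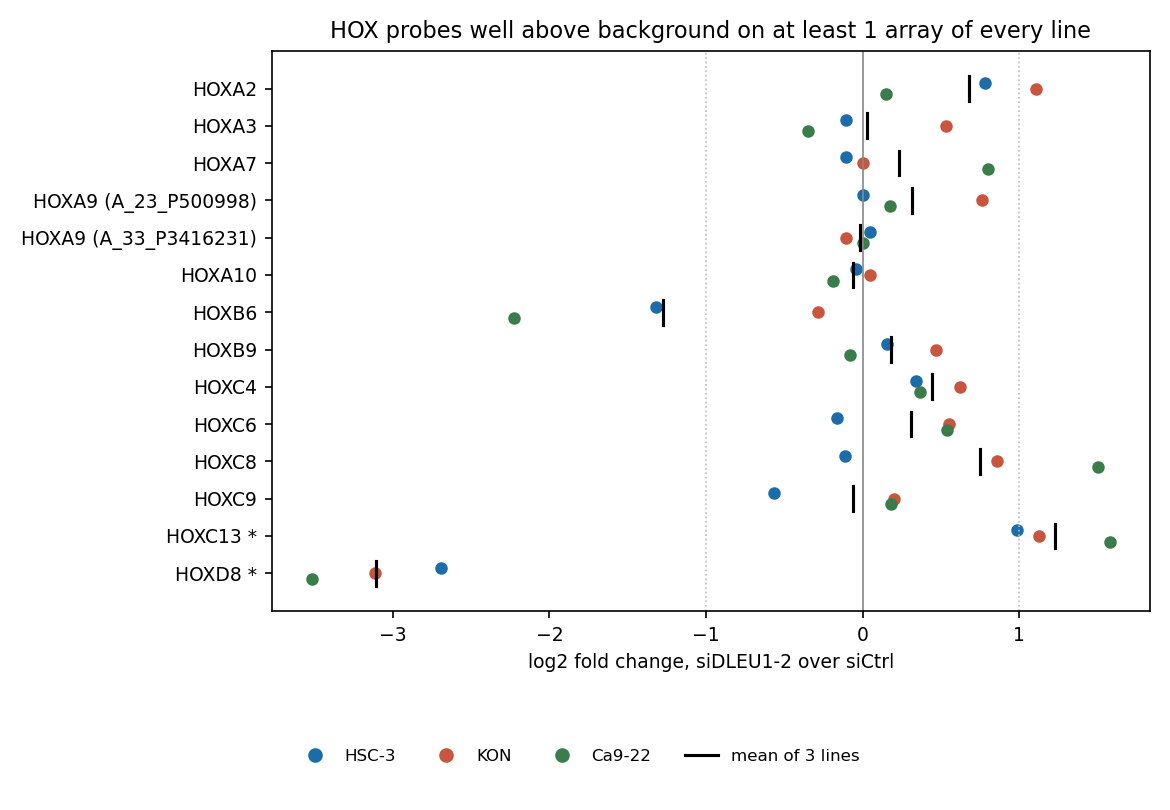
Log2 fold change of siDLEU1-2 over siCtrl in each line (points) and its mean over the 3 lines (bars) for the 14 HOX probes tested, in order of cluster and position; dotted lines mark 2-fold and asterisks the probes called by limma. HOXD8 lies between -3.52 and -2.69, HOXC13 between 0.99 and 1.58, and the means of the other 12 probes between -1.27 and 0.75.

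HOXD8 showed the largest change of the HOX genes tested. This gene, at chromosome 2 from 176996109 to 176996168 in the probe's coordinates, was expressed in every line with siCtrl, with HSC-3 at -1.80, KON at -1.45, and Ca9-22 at -0.05. After siDLEU1-2, it was at -4.49, -4.56, and -3.57, and not well above background on any of these arrays. The 3 siCtrl arrays lay above the 3 siDLEU1-2 arrays with no overlap. The log2 fold changes were -2.69, -3.12, and -3.52, with a mean of -3.11 ± 0.41 (SD, n = 3 lines; adjusted p = 0.0227, limma). The probe entered this fit through the siCtrl arrays, where it is bright, and with a filter of all 6 arrays it is not tested. Because the lower values are at background, the fall was at least 5.16-fold over the lines, and at least 3.47-fold, 4.20-fold, and 9.43-fold in HSC-3, KON, and Ca9-22. With normexp background correction, which draws dim values together, the mean was -1.21 (adjusted p = 0.0329), and it was under 2-fold in at least 1 line. Of the 66 tested probes that hold the sense heptamer shown above, 5 were called lower (7.58%), HOXD8 among them, and 0 higher, beside the 4.52% of all probes called lower, and their median log2 fold change was -0.01. Of the 57 tested probes that hold the antisense heptamer, none of them a HOX probe, 19 were called lower (33.3%) and 4 higher, with a median log2 fold change of -0.58. Left without HSC-3 or without KON, HOXD8 lost the call (adjusted p = 0.0808 and 0.103, means of -3.32 and -3.11), and without Ca9-22 it held (adjusted p = 0.0467).

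HOXD8 lies in the HOXD cluster among genes that most lines did not express, so few of its neighbors could be compared. In HSC-3, the adjacent HOXD9, HOXD10, and HOXD11 changed by -0.59, -0.87, and -1.32 on the log2 scale, within 1 line and with no replicate. On the other side, the noncoding transcript LOC401022 (NR_033979, HAGLR in RefSeq), with a probe at chromosome 2 from 177037944 to 177038003, fell in all 3 lines. Its levels were -1.90 and -5.01 in HSC-3 cells, -1.64 and -3.56 in KON cells, and 0.24 and -1.65 in Ca9-22, with a mean change (log2) of -2.31 ± 0.70 (SD, n = 3; adjusted p = 0.0291, limma), in which the values of HSC-3 and KON after siDLEU1-2 were not well above background. In these lines the probe entered the fit through siCtrl alone. As bounds, the fall was at least 3.24-fold (HSC-3) and at least 3.68-fold (KON). LOC100506783 (NR_038435, HOXD-AS2 in RefSeq), also within the cluster, was at 2.34 and 0.77 in HSC-3 and 1.02 and -0.94 in Ca9-22, and at background in KON. It was not tested, as it was not measured in every line. Outside the cluster, KIAA1715 (LNPK in RefSeq), which flanks the HOXD13 end and encodes an endoplasmic reticulum protein, fell by 1.44, 1.56, and 1.71 on the log2 scale in HSC-3, KON, and Ca9-22, with a mean of -1.57 ± 0.14 (SD, n = 3; adjusted p = 0.0247, limma), with all 6 arrays well above background. Without HSC-3, KON, or Ca9-22 its adjusted p was 0.0808, 0.103, and 0.0586. MTX2, a mitochondrial import gene at the other flank, was at 0.13, 0.38, and 0.31 in the same order (adjusted p = 0.28).

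HOXC13, the last gene of its cluster and a regulator of hair and nail keratins, was the HOX gene called higher. Its levels rose from 1.05 to 2.04 in HSC-3, from 1.65 to 2.78 in KON, and from 0.81 to 2.39 in Ca9-22. The siCtrl arrays (highest 1.65) and the siDLEU1-2 arrays (lowest 2.04) did not overlap, and all 6 arrays were well above background. The log2 fold changes were 0.99, 1.13, and 1.58, with a mean of 1.23 ± 0.31 (SD, n = 3; adjusted p = 0.0315, limma), so HSC-3 fell just short of 2-fold. Left without HSC-3, KON, or Ca9-22, limma gave adjusted p = 0.0908, 0.116, and 0.0904, so the call needs all 3 lines. No pair of lines differed by the test (smallest adjusted p = 0.0791).

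**Figure D5:**
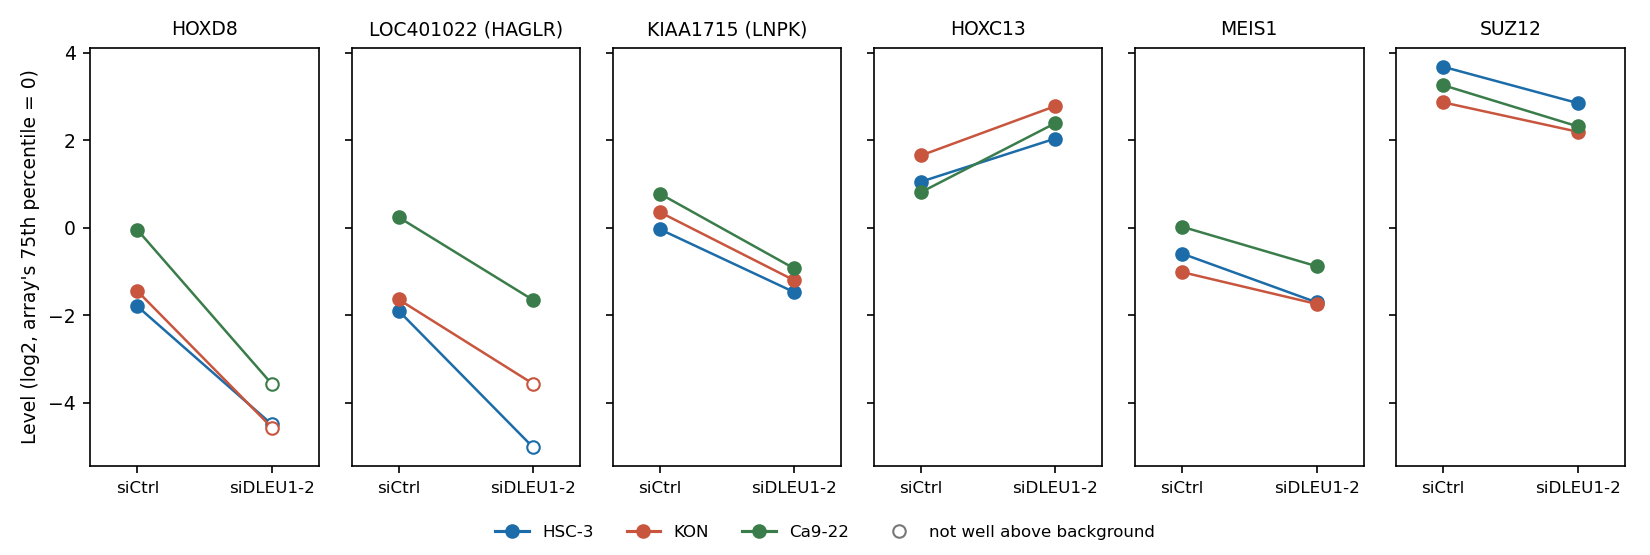
Level with siCtrl and with siDLEU1-2 in each line (points joined within a line) for 2 HOX genes, 2 transcripts in or beside the HOXD cluster and 2 genes that act with or on HOX genes, log2 with the array's 75th percentile at 0; open points are not well above background. All 3 lines move down for HOXD8, LOC401022, KIAA1715, MEIS1, and SUZ12 and up for HOXC13.

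The other 12 HOX probes did not pass the test, with adjusted p-values from 0.113 to 0.953 and mean log2 fold changes from -1.27 to 0.75. HOXB6 had the lowest mean, where HSC-3 gave -1.32, KON -0.28, and Ca9-22 -2.22 (adjusted p = 0.113, limma), and its last value was at background, at least 1.27-fold lower. HOXC4 was 0.34, 0.62, and 0.37 in the same order (adjusted p = 0.125), and HOXA2 was 0.78, 1.11, and 0.15 (adjusted p = 0.132), both above 0 in each line. HOXC8 ranged from one sign to the other, with -0.11, 0.86, and 1.5 (adjusted p = 0.219). HOXA9 and HOXA10 had means of -0.02 and -0.06 with the probes bright on all arrays, and HOXA9 0.31 with its other probe. HOXA3, HOXA7, HOXB9, HOXC6, and HOXC9 had means of 0.03, 0.23, 0.18, 0.31, and -0.06. A p that misses the threshold with 3 pairs does not show that these genes stayed the same.

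Transcripts between the outermost HOX probes of a cluster that carry no HOX gene name were represented by 41 probes, of which 17 were well above background on no array and 7 could be tested for the siRNA. limma called 2 of the 7 lower, where 4.52% of all probes were, namely LOC401022 and XLOC_012505, a noncoding transcript (ENST00000438772) in the HOXB cluster at chromosome 17 from 46713662 to 46713721. The probe A_21_P0009192 of XLOC_012505 was at -0.01 and -1.07 in HSC-3 cells, -1.34 and -2.76 in KON cells, and 0.18 and -0.75 in Ca9-22, with a mean change (log2) of -1.14 ± 0.26 (SD, n = 3; adjusted p = 0.0315). The 3 other probes of XLOC_012505 were too dim to be tested. Of these, A_21_P0009193 was well above background on 2 arrays, siCtrl of HSC-3 and of Ca9-22, and A_21_P0009191 on none. As bounds, A_21_P0009193 was at least 1.34-fold lower after siDLEU1-2 in HSC-3 and 1.01-fold lower in Ca9-22. A_21_P0009194, annotated to another transcript, did not show the fall, with 0.03 in Ca9-22, where both arrays were well above background, and at least 1.48-fold more after siDLEU1-2 in HSC-3. These transcripts were named after their values were seen. HOTAIR, the HOXC transcript known for its link to Polycomb, had 9 probes, 1 of them measurable over background on all 6 arrays, at 2.84 and 3.62 in HSC-3 cells, 0.90 and 1.68 in KON cells, and 0.96 and 0.74 in Ca9-22 (mean log2 fold change 0.45, adjusted p = 0.308). This probe was highest in HSC-3, which the probes A_19_P00330464 (-2.73 and -2.58 against -1.33 and -2.22 in Ca9-22) and A_19_P00330814 (-3.06 and -3.04 against -1.82 and -3.11) did not show, with no difference called between these lines (adjusted p = 0.186 and 0.264, limma). HOTAIRM1, at the 3′ end of HOXA, changed by 0.63, 0.87, and -0.14 (adjusted p = 0.282).

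Among genes known to act with or on HOX genes, 58 were on the array with 91 probes, and 61 probes of 45 genes could be tested. limma called 1 higher and 2 lower, and the median log2 fold change of the 61 was -0.03, beside 0.01 over all probes, of which 3.98% were called higher and 4.52% lower. The lower calls were MEIS1 and SUZ12. MEIS1, a homeodomain cofactor that binds DNA with HOX proteins, fell by 1.11, 0.73, and 0.90 on the log2 scale with the probe A_24_P319736, with a mean of -0.91 ± 0.19 (SD, n = 3; adjusted p = 0.0385, limma). Its probe A_33_P3342942, too dim to be tested, was well above background only in KON with siDLEU1-2 (-2.66 against -5.96 with siCtrl). There it was at least 2.27-fold higher, with no replicate. The MEIS1 probe A_33_P3342938 was well above background on no array. The tested probes of PBX2, PBX3, PBX4, MEIS2, and PKNOX1, cofactors of the same class, were not called. Among 26 probes of Polycomb genes, 1 was called, SUZ12, a subunit of the complex that methylates histone H3, with log2 fold changes of -0.83, -0.67, and -0.94 and a mean of -0.81 ± 0.14 (SD, n = 3; adjusted p = 0.0421, limma). Leaving out HSC-3, KON, or Ca9-22 in turn ended the calls of MEIS1 (adjusted p = 0.130, 0.116, and 0.122) and SUZ12 (adjusted p = 0.138, 0.121, and 0.151). The enzyme of the complex of SUZ12, EZH2, was at -0.46, 0.43, and -0.64 (adjusted p = 0.605). None of the 13 trithorax probes was called at this threshold, and 2 MLL probes were at -0.66 and -0.68 in the mean (adjusted p = 0.054 and 0.0698). Of 9 retinoic acid pathway probes, none was called, and CRABP2, which carries retinoic acid to its receptor, was above 2-fold in each line, with 1.14, 3.31, and 2.17 (mean 2.21 ± 1.09, adjusted p = 0.0510, limma).

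Markers of cell type changed in the same siRNA comparison. Of the 12 squamous markers, 12 could be tested, and limma called 4 lower after siDLEU1-2 (KRT6A, SFN, TP63, and DSG3) and 0 higher, beside 4.52% and 3.98% of all probes. The marker counts are of genes called by any of their probes, so they cannot be set directly against shares of probes. The summed level of the squamous markers was 9.32 to 10.92 on the log2 scale with siCtrl and 9.12 to 10.32 with siDLEU1-2. COL1A1, the only fibroblast marker tested, was called higher, and the summed level of that list was -0.34 to -0.08 with siCtrl and 0.83 to 1.57 with siDLEU1-2, while 5 of its 7 genes were at background on all arrays. Of 4 endothelial and 5 leukocyte markers, 2 and 1 could be tested and 0 were called. The summed endothelial level was -0.05, -1.60, and -0.46 with siCtrl in HSC-3, KON, and Ca9-22 and 0.24, -0.98, and 0.85 with siDLEU1-2, higher in each line. The summed leukocyte level was highest in HSC-3, at 5.60 and 6.02 against 0.63 and 1.13 for KON and -0.25 and 0.19 for Ca9-22. Only 1 of the 5 leukocyte genes was well above background on both arrays in HSC-3, as in KON, against 2 in Ca9-22. The sum in HSC-3 therefore does not stand for the list. The part of these changes in the HOX results was not tested.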

How the data were processed

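Total RNA of the 3 lines with siCtrl or siDLEU1-2 was hybridized by the authors to 1 slide of one-color Agilent SurePrint G3 v2 arrays, and the deposited scanner files (Feature Extraction 10.7 per the labels, 10.7.3.1 per the file headers) hold the processed intensity of each spot, background-subtracted on a linear scale. The deposited series table holds the same intensity, rounded (largest difference 0.497%). Probe coordinates and gene names are those of the files (hg19); all 39 HOX symbols, and the accessions of the noncoding transcripts renamed in the text, were looked up in the RefSeq table of GRCh38.p14, from which no coordinates were taken. The siRNA strands are from the supplementary oligonucleotide table of the study.

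Outlier spots were dropped, spots averaged per probe, and the log2 processed signal set relative to each array's 75th percentile. For a probe with several spots, 50% or more had to pass the scanner software's test of being well above background. limma 3.58.1 in R 4.3.3 was fitted over all kept probes with terms for siRNA and line, Benjamini-Hochberg adjustment and a threshold of 0.05. The 2 arrays of a line share that line, so the line is the block, and after subtracting each siRNA's mean, the pairs correlated at 0.83, 0.81, and 0.82. For the siRNA, 19956 probes well above background on at least 1 array of every line were kept, and for the lines, 23700 well above background on both arrays of at least 1 line. Left out were 55 probes that had lost all spots on an array. The fits were tested on simulated data with known changes before use.

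The members and gene lists were chosen with earlier results of these data known. Full values are given for HOX probes called by limma, over 2-fold in all 3 lines, well above background on all 6 arrays, or well above background on both arrays of 1 or 2 lines and no array of another, and for listed genes called or over 2-fold in all lines. The number of arrays limits the precision. Slide could not be fitted as a block, as there is 1 slide. Results for some genes are not reported here, although the counts include them.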

Additional observations from a re-analysis of the deposited data

How the results depend on the processing

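Both HOXD8 and HOXC13 passed limma's test under quantile normalization, median centering, centering on detected probes, normexp correction, the series table, dim probes at the floor, and averaging a gene's probes. The call of HOXD8 was absent with the filter of all 6 arrays well above background, which leaves it untested (0 lower calls and 0 lower over 2-fold). With normexp, 0 HOX probes were over 2-fold lower in all lines, and the partner and regulator list had 2 higher and 4 lower calls. Median centering gave 2 higher and 3 lower, and moved the share of higher calls over all genes from 46.8% to 37.4%. CRABP2 passed with median centering (adjusted p = 0.0498), normexp (0.0188), the filter of all 6 arrays (0.0345), and dim probes at the floor (0.0430). With no filter on dim probes, limma called 0 HOX probes higher and 0 lower (0 over all genes, 6816 at an unadjusted p below 0.05, 7 of them HOX), and DLEU1, at -3.72, did not pass (adjusted p = 0.141). The methods' t-test also gave 0 and 0 after adjustment (1373 over all genes unadjusted, 2 of them HOX).

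The cell line pairs the arrays and is the replicate block. With no replicate block, limma called 0 HOX probes higher and 0 lower and 0 and 0 in the list (1357 unadjusted over all genes, 2 of them HOX), HOXD8 and HOXC13 had adjusted p = 0.272 and 0.490, and DLEU1 was at -3.72 (adjusted p = 0.183).

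Leaving out 1 line at a time gave 0 HOX calls higher, 0 to 1 lower, 0 to 1 over 2-fold higher, 1 to 2 over 2-fold lower, 0 to 1 higher and 0 lower in the list, and -3.87 to -3.54 for DLEU1 (-3.54, adjusted p = 0.0808, without HSC-3 and -3.77, adjusted p = 0.103, without KON). Signs turned for HOX means near 0. HOXA3 was -0.047 with median centering, -7.05e-05 with centering on detected probes, and -0.23 without KON. HOXC9 was 0.19 without HSC-3, HOXA7 -0.052 and HOXA10 0.0029 without Ca9-22, and HOXA9 (A_33_P3416231) 0.023 without KON and 0.15 with its probes averaged.

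Against negative control spots in place of the scanner's test, HSC-3 expressed 29 HOX genes, KON 26, and Ca9-22 24. Probes detected on all 6 arrays gave 4, 7, and 5 calls between lines (HSC-3 and KON, HSC-3 and Ca9-22, KON and Ca9-22). The causes were not tested. With 1 array per line and siRNA, changes within a line have no error, and dim probes give bounds.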
